A study of Homo sapiens with 18 samples.

Results

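Long intergenic non-coding RNA genes with a LINC number were followed across young, old and inflachromene-treated fibroblasts. The members were chosen by a rule on their own readout: every gene symbol that begins with LINC and a digit and that had 90 or more mRNA-seq reads, summed over the 7 class columns of the tables and over 9 libraries. This selected 145 of 1902 LINC symbols, among 38716 symbols listed in all. Another 811 LINC symbols had reads but fell under the minimum, and 946 had none. At the threshold, LINC01531 (90.8 reads), LINC02615 (90) and LINC00889 (90) were inside, and LINC00402 (89.8), LINC02080 (87) and LINC00472 (87) were outside. Because the rule read the total of all 9 mRNA-seq libraries, the total of a member is a description here, and the differences between conditions are what was tested.

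The cells were IMR90, fibroblasts from human fetal lung that stop dividing after long culture. Young cells were proliferating, old cells had been passaged until replicative senescence, and ICM cells had received, for several days by the study's text, inflachromene (ICM), a compound known to bind HMGB1 and HMGB2, 2 abundant proteins of chromatin. Each condition had 3 replicates, grown independently by the study's methods, and each lysate was split between ribosome profiling (Ribo-seq, which reads the RNA fragments that ribosomes protect) and mRNA-seq of poly(A)-enriched RNA, giving 18 libraries in 6 groups of 3. The dose of ICM and whether young and old cells received its solvent were not stated for these libraries. The study's results compare its young and ICM data with earlier data on replicative senescence, while its methods list all 3 conditions together. Whether the old libraries here are those earlier data was not stated. A batch can therefore not be told apart from the condition in comparisons with old cells.

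LINC genes are named by number when their transcripts come from between protein-coding genes and no protein or function is known at the time of naming. Their RNAs are commonly spliced, capped and polyadenylated like mRNAs, and are typically expressed at lower levels and in fewer cell types. Some act on a neighbouring gene on the same chromosome, some act on distant targets, some hold the precursors of small RNAs, and a few were later found to encode proteins. In senescent cells the transcripts of cell division genes are known to fall, and those of secreted factors and of the p53 pathway to rise.

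Depth and identity of the libraries were as follows. The mRNA-seq libraries held 8.19e+06 to 1.46e+07 reads, of which members took 10038 to 14428 (0.0960% to 0.124%). The Ribo-seq libraries held 57632 to 2149950 reads, of which members took 3.5 to 315. Fibroblast markers were high in mRNA-seq (COL1A1 at a mean of 14081 CPM in young, 13021 in old and 2956 in ICM, where CPM is a count scaled to library size by TMM), and CD3E of T cells, CDH5 of endothelium and MYOD1 of muscle had no read. Some other markers of those lineages were present: TEK stood at 57.4, 98.6 and 49.1 CPM in young, old and ICM, CD68 at 20, 32.2 and 56.6, and KRT19 of epithelium at 14, 0.997 and 0.466. The condition markers moved with the labels. HMGB2 stood at 99.9 to 110.4 CPM in young, 17.2 to 21.4 in old and 4.13 to 5.63 in ICM. CDKN1A, the p21 inhibitor of the cell cycle, stood at 489 to 505 CPM in young, 1432 to 1556 in old and 3100 to 3360 in ICM. Fewer cells with a transcript and less of it per cell cannot be told apart in such bulk samples.

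Most members are what their name says. RefSeq lists 142 of the 145 as long non-coding RNA and 3 as protein-coding genes under other names. In GENCODE on GRCh37, 130 members could be placed and 15 could not. Of those placed, 103 lay between coding genes, 19 shared exon bases with a coding gene, 5 lay within or across a coding gene without a shared exon base, and 3 were the coding gene itself. Exonic length ran from 143 to 33198 bases, with a median of 4287. In the deposited tables, 99.4% of the members' mRNA-seq reads stood in a class column for LINC genes, the reads of 5 members (named here because there are so few: LINC02193, LINC01293, LINC01943, LINC01824 and LINC01836) stood in the non-coding RNA column, and no member had a read in the CDS or UTR columns.

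The reads were unevenly divided. The median member had 250 mRNA-seq reads over 9 libraries, and the 5 with the most were LINC01279 (12415 reads), LINC00987 (11464), LINC02067 (9945), LINC01623 (9546.5) and LINC00674 (7468). The first 4 of these held 39.1% of all member reads. LINC00987, LINC02067 and LINC01623 each hold a processed copy of a highly expressed coding gene. The copies are PTMAP4 of PTMA (prothymosin alpha, an abundant nuclear protein), RPL23AP42 of RPL23A and RPL13P of RPL13 (ribosomal proteins). In each case GENCODE puts the copy on the strand opposite to the LINC gene. Matching stretches of LINC02067 and LINC01623 are shown here because these members are among the 5 with the most reads. Whether reads of the coding genes were counted on these members was not tested. LINC01399, which GENCODE classes as a transcribed processed pseudogene, is shown with COX7B for its footprints. Each pair of lines gives a 30-base window from the transcript of the LINC gene and the same window of the coding gene (reverse complement for RPL23A and RPL13, same strand for COX7B), in lower case with bases that differ in capitals, from the GENCODE transcripts on GRCh37. The windows lie on the LINC gene at chr3:161147177-161147206 (+), chr6:28829621-28829650 (-) and chr22:35590836-35590865 (-).
LINC02067: ttgtttctcctgggagcgctcttccgagga
RPL23A: ttgtttctcctgggagcgctcttccgagga
LINC01623: gggcatgaccggtccTgtcagctgggtggc
RPL13: gggcatgaccggtccGgtcagctgggtggc
LINC01399: cagagccaccagaaaGgtacacctgatttt
COX7B: cagagccaccagaaaCgtacacctgatttt

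Counting from 1 at the left of each window and giving the base of the coding gene before that of the LINC gene, the differences are G16T in LINC01623 and C16G in LINC01399, and there is none in the LINC02067 window. Over the whole ungapped match, LINC00987 and PTMA differed at 10 of 285 bases (96.5% identity), LINC02067 and RPL23A at 0 of 121, LINC01623 and RPL13 at 17 of 232 (92.7%), and LINC01399 and COX7B, a subunit of cytochrome c oxidase, at 18 of 195 (90.8%). The longest runs without a difference were 60, 121, 43 and 55 bases. The mRNA-seq reads were 47 bases or longer by the study's methods, so that a read without mismatches can fit both genes of a pair for LINC00987, LINC02067 and LINC01399, and for LINC01623 a read would need at least 1 mismatch. Footprints are shorter, and words of 30 bases were shared in all 4 pairs. Whether strand was used in the counting, and where a read that matches 2 genes was put, was not stated for these tables, so the levels of these members are uncertain.

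Sharing of sequence was common but mostly short. Of 127 non-coding members with GENCODE transcripts, 96 shared at least 1 word of 47 bases with the transcripts of a coding gene on either strand, 31 shared none, and 115 shared a word of 30 bases. The median share of a member's 47-base words that was found in a coding gene was 1.24%, and the highest was 43.3%. A pseudogene lay within the span of 41 members.

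In cells given inflachromene, more members were called higher than lower. Of the 145 members, all of which passed the filter on low counts, 79 changed between ICM and young (edgeR, adjusted p under 0.05), 52 up and 27 down. This is 54.5% of members, 35.9% up and 18.6% down, against 68.2% of all 15378 symbols tested, 33.6% up and 34.7% down. The split depended on the columns counted: with the LINC and non-coding RNA columns alone, fitted and scaled by themselves (an alternative chosen after seeing the data), 44 rose and 34 fell. At that setting 53.8% of members were called, beside 49% of the 1664 symbols tested there. The median log2 change was 0.17 over members and -0.00430 over all symbols. Most members have few reads, and of 7301 other symbols with mean reads between the 5th and 95th percentile of members, 62.4% changed. Changes both called and over 1 in absolute log2 were found in 26.9% of members, 21% of all symbols and 24.8% of the symbols with like read numbers.

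Replicative senescence moved fewer. In old vs young, 61 members changed, 40 up and 21 down (42.1%, 27.6% and 14.5%), where 62.7% of all symbols changed, 31.0% up and 31.7% down. The median log2 change was 0.17 in members and -0.01 in all symbols. Between ICM and old, 72 members changed, 38 higher and 34 lower in ICM (49.7%, 26.2% and 23.4%), where 60.7% of all symbols changed, 29.1% higher and 31.6% lower. The medians were 0.01 and -0.01. For symbols with read numbers like those of members, the called shares were 56.5% (old vs young) and 55.3% when ICM and old were compared. Changes both called and over 1 in absolute log2 did not exceed those of symbols with like read numbers in these 2 comparisons. In old vs young they were found in 20% of members, 16.1% of all symbols and 21.2% of symbols with like read numbers. Between ICM and old the shares were 16.6%, 16.6% and 20.8%. The filter asked for about 10 reads in as many libraries as a group holds, and 43 members had under 30 reads in at least 1 condition, so that some passed through the condition in which they were high.

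**Figure D1:**
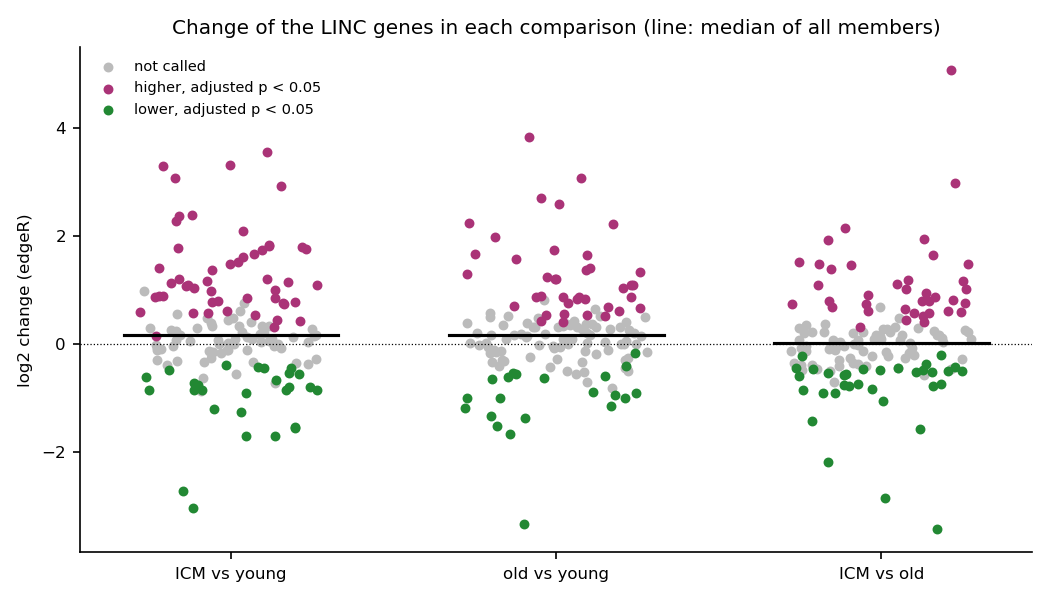
Log2 change in mRNA-seq (y axis, edgeR) of the LINC genes in 3 comparisons (x axis); each point is a member, coloured by its call, and the black line is the median of all 145 members. LINC00484 is not drawn because it had no read in young cells; the medians sit at 0.17, 0.17 and 0.01, and the point highest in ICM vs old is LINC00968.

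The comparisons with young share the same 3 young libraries, so the calls are set side by side without a test of their overlap. Of the members, 24 rose in ICM and in old, 12 fell in both, 23 rose and 13 fell in ICM without a call in old, 14 rose and 4 fell in old without a call in ICM, 7 were called in opposite directions, and 48 were called in neither. The same direction in both was thus found in 24.8% of members and 40.8% of the 15378 symbols, opposite directions in 4.83% and 7.61%, and no call in either in 33.1% and 17.5%. In all, 103 members (71%) were called in at least 1 of the 3 comparisons and 42 (29%) in none, where 85.8% and 14.2% of all symbols were.

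LINC00968 had the largest rise in ICM cells among members with reads in young cells. Its level was 1.92, 1.94 and 2.13 CPM in the young replicates, 0.729, 0.645 and 0.719 CPM in old, and 22.8, 27.6 and 20.9 CPM in ICM. The 3 groups did not overlap, with old lowest and ICM far above. The log2 change was 3.56 in ICM vs young (SE 0.15, edgeR adjusted p 1.5e-14), -1.52 in old vs young (SE 0.32, adjusted p 0.000293) and 5.08 in ICM vs old (SE 0.18, adjusted p 1.03e-15). The gene lies on chromosome 8 at 57406868 to 57472382 on the minus strand (GRCh37), with 6 exonic blocks, 47638 bases from PENK, which encodes the opioid precursor proenkephalin.

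Other members were high in ICM alone among the 3 conditions. LINC00856 was at 0.481, 0.254 and 0.741 CPM in young, 0.625, 0.502 and 0.719 in old, and 5.36, 4.20 and 4.98 in ICM. It had 15 reads in young, 21 in old and 182 in ICM, and passed the filter on low counts through ICM cells. The young and old values overlapped, and all ICM values lay above them (log2 change 3.30 in ICM vs young, SE 0.28, edgeR adjusted p 9.09e-10, and 2.99 in ICM vs old, SE 0.25, adjusted p 1.65e-09). LINC02256 stood at 1.20, 1.86 and 0.927 CPM in young, 1.77, 1.43 and 1.98 in old, and 6.88, 6.52 and 6.45 in ICM, a log2 change of 2.28 in ICM vs young (SE 0.21, adjusted p 2.99e-09) and of 1.95 in ICM vs old (SE 0.19, adjusted p 1.33e-08).

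LINC00632, the host transcript of the circular RNA CDR1as, had 0.601, 0.338 and 0.556 CPM in young, 0.312, 0.717 and 0.539 in old, and 2.61, 1.43 and 2.21 in ICM. It had 14.8 reads in young, 19.3 in old and 78.3 in ICM, and passed the filter on low counts through ICM cells. The rise in ICM passed the test (log2 change 2.10, SE 0.35, edgeR adjusted p 1.88e-05), while old vs young did not (0.17, SE 0.48, adjusted p 0.777). Poly(A) selection does not retain circular RNA, so these values concern the linear transcript of chromosome X, 139791727 to 139875380 (plus strand). LINC01547 stood at 0.649 to 1.18 CPM in young, 0.417 to 1.15 in old and 3.22 to 3.68 in ICM (log2 change 1.82 against young and 2.14 against old, edgeR adjusted p 3.47e-06 and 6.82e-07). It lies 84 bases from SLX9, on chromosome 21 at 46352729 to 46359856.

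A second set was high in old cells. LINC00452 was at 3.13, 1.52 and 2.04 CPM in young, 11.4, 13.2 and 13.9 in old, and 1.45, 0.536 and 1.47 in ICM. It rose in old vs young (log2 change 2.58, SE 0.20, edgeR adjusted p 4.52e-10) and fell in ICM vs young (log2 change -0.85, SE 0.32, adjusted p 0.0246), though the fall was called in 12 of 14 alternatives only (edgeR or DESeq2 adjusted p up to 0.145). It lies on chromosome 13 at 114591279 to 114626485 (plus strand), 24230 bases from GAS6, a ligand of the TAM receptor kinases, whose own log2 changes were 1.16 from young to old and -0.70 in ICM vs young. LINC00565, named SWINGN in RefSeq and 58976 bases from GAS6, moved otherwise. It fell from 6.21 to 7.10 CPM in young to 3.06 to 3.66 in old and 1.88 to 2.45 in ICM (log2 change -1.55 in ICM vs young, SE 0.17, edgeR adjusted p 4.58e-08, and -1.0 in old vs young, SE 0.16, adjusted p 1.13e-05). Its annotated end and that of LINC00452 overlap on opposite strands between 114626025 and 114626485.

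LINC02085, named RDUR in RefSeq, had 0.481, 0.169 and 0.0927 CPM in young, 3.85, 3.16 and 3.24 in old, and 0.290, 0.536 and 0.572 in ICM. With 7 reads in young, 117 in old and 17 in ICM, it passed the filter on low counts through old cells. Old cells stood apart from the other 2 conditions, whose values overlapped (log2 change 3.84 in old vs young, SE 0.37, edgeR adjusted p 9.64e-09, and -2.86 in ICM vs old, SE 0.30, adjusted p 3.39e-08). Its nearest coding gene, NFKBIZ, which encodes an inducible regulator of NF-kappaB, was 79837 bases away and had a log2 change of 1.27 from young to old and of -1.65 in ICM vs old. LINC00484 had no read in the 3 young libraries, 2.40, 3.08 and 1.44 CPM in old, and 0.507, 0.447 and 0.490 CPM in ICM. Against the limit that a count of 0 allows (3 reads over the young libraries together), it was at least 23.8-fold higher in old and at least 4.96-fold higher in ICM. With 82 reads in old and 18 in ICM, LINC00484 passed the filter on low counts through old cells. Between ICM and old it was lower in ICM (log2 change -2.26, SE 0.35, edgeR adjusted p 1.34e-05).

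LINC02615, among the members nearest the threshold, had 0.481, 0.676 and 0.741 CPM in young, 1.35, 2.30 and 1.08 in old and 0.507, 0.179 and 0.327 in ICM. Its rise in old vs young (log2 change 1.33, SE 0.36, edgeR adjusted p 0.0033) rested on 20 young and 57 old reads, and was called in 12 of 13 alternatives (edgeR or DESeq2 adjusted p up to 0.0594). With 13 reads in ICM, LINC02615 passed the filter on low counts through old cells. The nearest coding gene, PGRMC2, a haem-binding membrane protein, lay 3922 bases away and had a log2 change of 0.50 in old vs young.

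**Figure D2:**
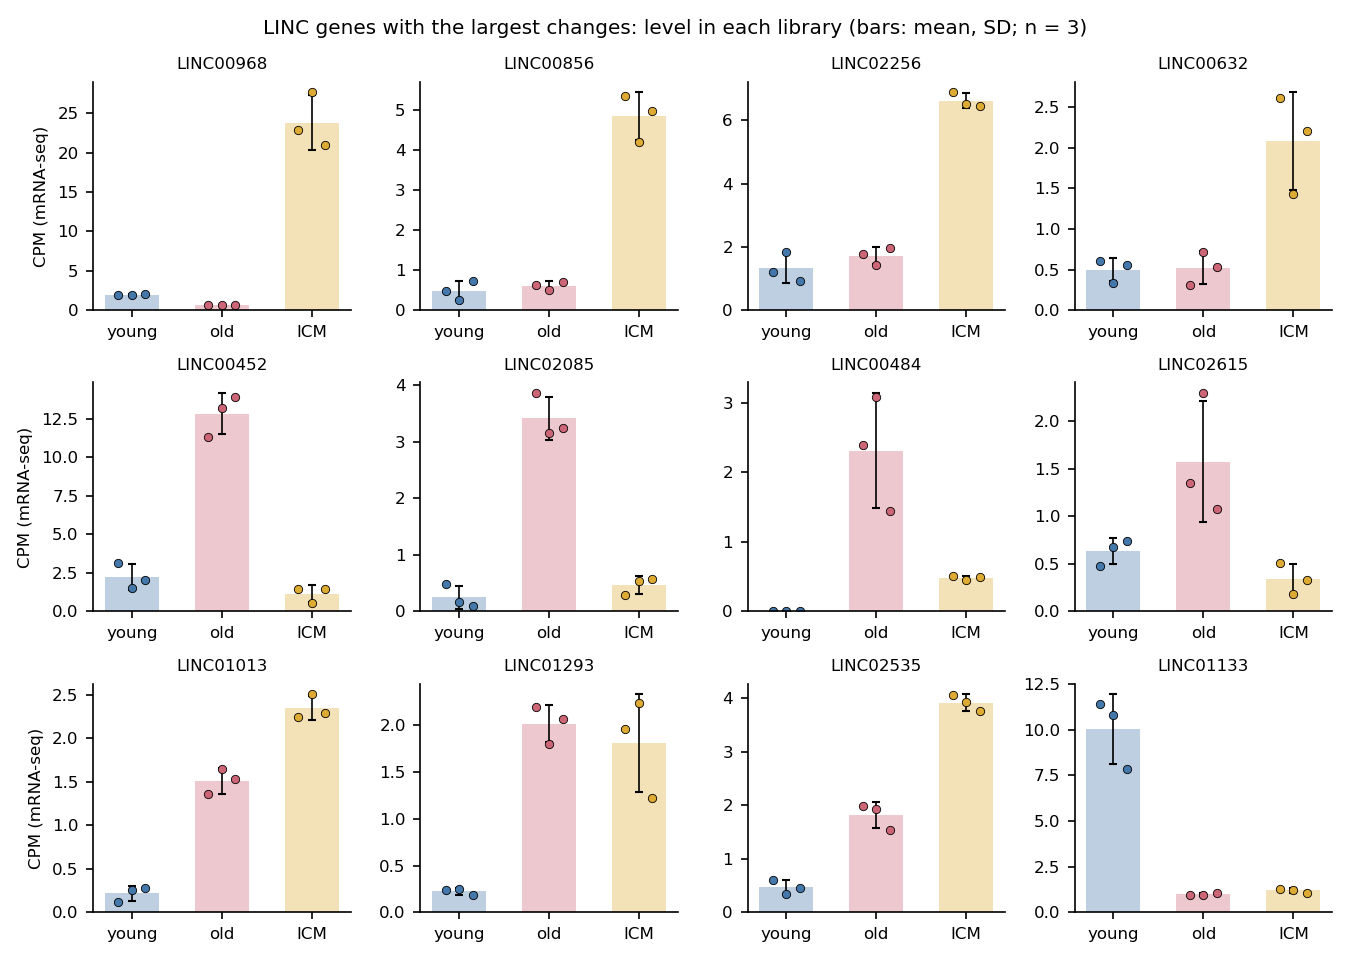
CPM in mRNA-seq (y axis, linear from 0) of 12 members in young, old and ICM cells; points are replicates, bars are means and error bars are SD (n = 3). The upper row holds members high in ICM, such as LINC00968 at 20.9 to 27.6 CPM, the middle row members high in old, such as LINC00452 at 11.4 to 13.9 CPM, and the lower row members that moved the same way in both.

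Among the members that rose in both states, LINC01013 was at 0.120, 0.254 and 0.278 CPM in young, 1.35, 1.65 and 1.53 in old, and 2.25, 2.50 and 2.29 in ICM (log2 change 3.31 in ICM vs young, SE 0.35, edgeR adjusted p 3.07e-08, and 2.70 in old vs young, SE 0.39, adjusted p 3.56e-06). It had 7 reads in young, 53 in old and 87 in ICM, and passed the filter on low counts through the conditions in which it was high. Its annotated exons share 278 bases with the opposite strand of CCN2, the connective tissue growth factor gene, which had log2 changes of 1.12 and 1.47. Reads from those bases cannot be told apart if strand was not used.

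LINC01293 stood at 0.241, 0.254 and 0.185 CPM in young, 2.19, 1.79 and 2.07 in old, and 1.96, 2.23 and 1.23 in ICM. With 7 reads in young, 69 in old and 67 in ICM, it passed the filter on low counts through the conditions in which it was high. It rose in ICM vs young (log2 change 2.93, SE 0.41, edgeR adjusted p 1.66e-06) and in old vs young (3.08, SE 0.40, adjusted p 9.17e-07), and the old and ICM values overlapped. Its nearest coding gene, POLE4, 15973 bases away, had log2 changes of 0.28 and -0.13 (edgeR adjusted p 0.00543 and 0.198). LINC02535 rose from 0.338 to 0.601 CPM in young to 1.53 to 1.98 in old and 3.76 to 4.06 in ICM (log2 change 3.08 and 1.98, edgeR adjusted p 1.67e-09 and 1.79e-05). It had 14 reads in young, 63 in old and 146 in ICM, and passed the filter on low counts through the conditions in which it was high. It lies 59398 bases from NT5E, the gene of the ecto-nucleotidase CD73, which had log2 changes of 0.70 and 1.78.

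LINC01133 fell most among the members in both comparisons with young. Its levels were 11.4, 10.8 and 7.88 CPM in young, 0.937, 0.932 and 1.08 in old, and 1.30, 1.25 and 1.06 in ICM. All young values lay far above the others, and those of old and ICM overlapped. The log2 change was -3.03 in ICM vs young (SE 0.20, edgeR adjusted p 1.17e-11), -3.33 in old vs young (SE 0.21, adjusted p 1.37e-11) and 0.30 in ICM vs old (SE 0.32, adjusted p 0.437). LINC00477 fell from 1.20 to 1.86 CPM in young to 0.417 to 0.717 in old and 0.179 to 1.09 in ICM (log2 change -1.34 for old and -1.20 for ICM against young, edgeR adjusted p 0.00549 and 0.00811), and LINC01311 fell from 1.58 to 1.92 CPM to 0.574 to 1.35 and 0.435 to 0.653 (log2 change -1.0 and -1.70, edgeR adjusted p 0.00962 and 0.000206). The call of LINC00477 in ICM vs young was lost in 1 of 13 alternatives (edgeR or DESeq2 adjusted p up to 0.056) and that of LINC01311 for old cells in 2 of 13 (up to 0.0745). LINC00477 and LINC01311 passed the filter on low counts through young cells, in which they were high.

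LINC01638 fell in ICM without a call in old, and LINC01503 fell in old without a call in ICM. LINC01638 was at 0.741 to 2.05 CPM in young, 1.15 to 1.56 in old and 0.268 to 0.572 in ICM (log2 change -1.71 in ICM vs young, edgeR adjusted p 0.000767, and -0.13 in old vs young, adjusted p 0.737). LINC01503 was at 0.834 to 1.44 CPM in young, 0.287 to 0.539 in old and 0.894 to 1.88 in ICM. Its fall in old vs young (log2 change -1.38, SE 0.44, edgeR adjusted p 0.0101) no longer passed without old replicate 2 (log2 change -1.13, adjusted p 0.0584).

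LINC00987, LINC02067 and LINC01623, which share sequence with PTMA, RPL23A and RPL13, fell with those genes. LINC00987 stood at 250, 233 and 244 CPM in young, 80.1, 75.7 and 72.4 in old, and 36.7, 38.7 and 34.8 in ICM, and PTMA at 615, 584 and 577, at 187, 184 and 194, and at 84.6, 96.5 and 88.1. Against young, ICM cells had a log2 change of -2.72 in LINC00987 (SE 0.07) and -2.72 in PTMA (SE 0.07), and in old cells it was -1.67 (SE 0.06) and -1.65 (SE 0.06), with edgeR adjusted p between 1.05e-18 and 5.85e-15. In each library LINC00987 had between 37.3% and 43.4% as many reads as PTMA.

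LINC02067 had log2 changes of -0.85 in ICM (SE 0.07) and -0.64 in old (SE 0.07) against young, beside -0.92 and -0.64 for RPL23A, and its reads were 23.6% to 28.7% of those of RPL23A in every library. LINC01623 had -0.92 and -0.55 (SE 0.07 each) beside -0.75 and -0.41 for RPL13, and 8.29% to 10.6% of its reads. These ratios moved by 1.16, 1.22 and 1.27 times between the lowest and highest library. How many of these reads came from the coding genes was not tested.

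LINC01279 is listed in RefSeq as an older name of CCDC80, an extracellular matrix protein gene, and the tables hold CCDC80 as a symbol of its own. LINC01279 stood at 114, 121 and 125 CPM in young, 102, 110 and 108 in old, and 137, 134 and 129 in ICM, and the groups did not overlap. Its log2 change was 0.15 in ICM vs young (SE 0.06, edgeR adjusted p 0.035) and -0.17 in old vs young (SE 0.06, adjusted p 0.0254), where CCDC80 had -0.52 and -0.47 (SE 0.06 each). The calls of LINC01279 depended on the settings: the first was kept in 8 of 14 alternatives (edgeR or DESeq2 adjusted p up to 0.89) and the second in 10 of 14 (up to 0.115). LINC00672, now LASP1NB, and LINC00889, an older name of FGF13, are the other members that RefSeq lists as coding, and neither passed the test in any comparison, with LINC00672 at 2.17 to 4.40 CPM and LINC00889 at 0.629 to 1.09 CPM over the 9 libraries.

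**Figure D3:**
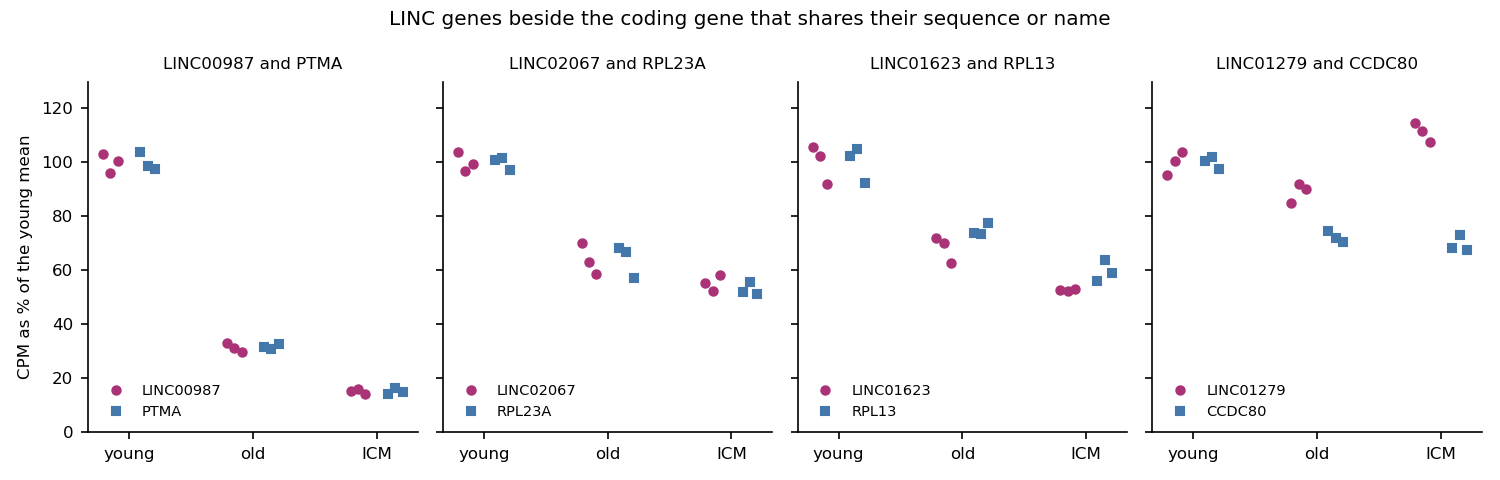
CPM in mRNA-seq as a percent of the young mean (y axis, linear from 0) for 4 pairs of a LINC gene (circles) and a coding gene that shares its sequence or name (squares); each point is a replicate. LINC00987 and PTMA, with log2 changes of -2.72 and -2.72 in ICM vs young, sit close together in each condition, while LINC01279 (0.15) and CCDC80 (-0.52) separate.

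The summed level of the members depended on LINC00987, LINC02067 and LINC01623. Summed over all 145 members, young cells had 1214 ± 14.9 CPM, old cells 1027 ± 20.2 and ICM cells 1013 ± 9.23 (SD, n = 3). Without LINC00987, LINC02067 and LINC01623 the sum was 708 ± 13.8 CPM in young, 776 ± 3.15 in old and 833 ± 10.5 in ICM. Young was thus highest in the sum of all members and lowest in the sum without the 3, and in neither case did a young replicate overlap with those of old or ICM. The same order of young against the others was found when members were scaled to all reads of the library without TMM (1227, 977 and 1049 with the 3, and 715, 738 and 863 without) and to CDS reads (1968, 1610 and 1722 with, and 1147, 1217 and 1416 without).

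**Figure D4:**
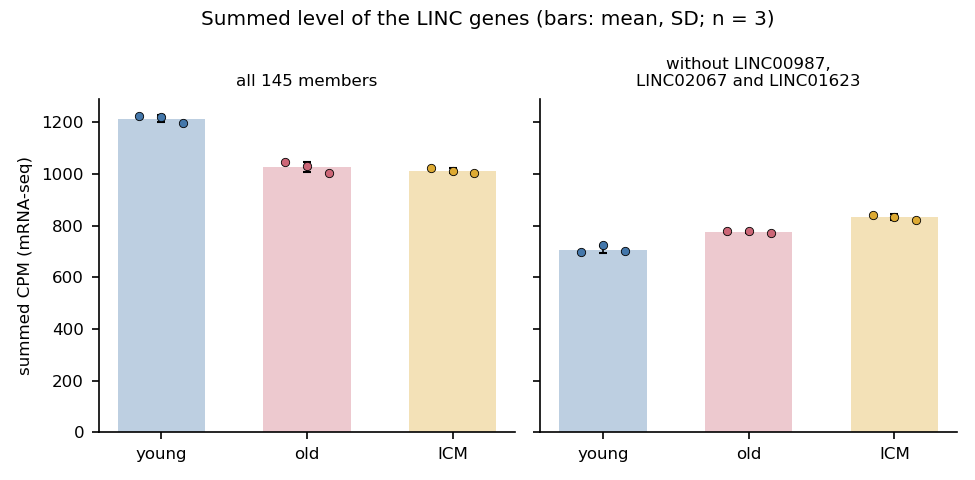
Summed CPM in mRNA-seq (y axis, linear from 0) of all 145 members and of the members without LINC00987, LINC02067 and LINC01623, by condition; points are replicates, bars are means and error bars are SD (n = 3). Young is highest in the left panel (1214 CPM) and lowest in the right panel (708 CPM).

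Members with a described role moved in different ways. LINC01578, now CHASERR, which lies beside the chromatin remodeller gene CHD2 and lowers its expression, was at 24.3 to 26.9 CPM in young, 21.2 to 28 in old and 16.1 to 21.6 in ICM. It fell in ICM vs young (log2 change -0.48, SE 0.12, edgeR adjusted p 0.000879), where CHD2 had -0.13 (adjusted p 0.121), and did not differ detectably in old vs young (0.00, SE 0.11, adjusted p 1.0), where CHD2 had -0.41 (adjusted p 9.98e-05). The annotated exons of both genes share 121 bases on the same strand. LINC00673, studied in pancreatic and other cancers, went from 5.77 to 6.67 CPM in young to 2.34 to 3.02 in old and 3.76 to 5.54 in ICM (log2 change -1.19 in old vs young, edgeR adjusted p 5.86e-06, and -0.45 in ICM vs young, adjusted p 0.0153). LINC00941, also studied in cancer, was at 2.97 to 5.77, 3.73 to 4.69 and 1.80 to 3.58 CPM, and its change in ICM vs young (-0.56, edgeR adjusted p 0.046) came with overlapping replicates and was called in 6 of 13 alternatives (edgeR or DESeq2 adjusted p up to 0.258). The fall of LINC00673 in ICM vs young was called in 11 of 14 (up to 0.0952).

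Nearest coding genes were compared for members that had a tested one. In ICM vs young, 50 called members had a tested nearest coding gene, which was called in the same direction for 21, in the opposite direction for 12 and not called for 17. These were 19, 12 and 12 of 43 for old against young, and 18, 14 and 18 of 50 for ICM against old. Among members that were not called, the nearest coding gene was called for 35 of 43, 36 of 50 and 26 of 43. These counts stand beside the 68.2%, 62.7% and 60.7% of all symbols that were called, and nothing is read from them about neighbours.

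Well-known long non-coding RNAs with other kinds of names served as a list for comparison. Of 45 listed, 36 were tested, and ICM cells differed from young in 24 (10 up, 14 down) and from old in 22 (13 up, 9 down), while 19 differed between old and young (5 up, 14 down). These were 66.7%, 61.1% and 52.8% of those tested, beside 68.2%, 60.7% and 62.7% of all symbols. NEAT1, the scaffold of nuclear paraspeckles, was at 86.6 to 136 CPM in young, 98.4 to 111 in old and 351 to 429 in ICM (log2 change 1.84 in ICM vs young, SE 0.11, edgeR adjusted p 3.57e-12, and -0.05 in old vs young, adjusted p 0.703). LINC-PINT, which is induced by p53, rose in both, from 7.41 to 9.74 CPM in young to 14.1 to 17.2 in old and 34.1 to 36.8 in ICM. The snoRNA hosts SNHG1 and SNHG3 fell in both (log2 change -1.72 and -2.22 in ICM vs young, edgeR adjusted p 4.76e-12 and 4.23e-13).

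Footprints on the members were few. Over the 9 Ribo-seq libraries, 145 members had 949 footprints in all. They numbered 13.2, 144.5 and 315 in the young replicates, 315, 25.2 and 89.2 in old, and 39, 4.5 and 3.5 in ICM, where replicates 2 and 3 were the shallowest of all libraries. Of the members, 109 had a footprint, 36 had none, and 26 had at least 10. No member passed the filter on low counts in Ribo-seq, so neither a difference in footprints nor one in footprints relative to RNA was tested in edgeR for any of them at this depth. Without the filter 100 members could be fitted in Ribo-seq. Of these, 1% (ICM vs young), 3% (old vs young) and 0% (ICM vs old) were called, where 6.05%, 7.71% and 3.58% of 16866 symbols were. LINC00856 was then called in ICM vs young (log2 change 5.09, edgeR adjusted p 0.0308) from 0 footprints in young and 3 in ICM, all 3 in 1 library. In old vs young, LINC00452 was called (4.70, adjusted p 0.0134) with no footprint in young and 11, 0 and 2 in old. LINC01204 (5.52, adjusted p 0.00197) had none in young and 3.5, 5.5 and 4.5 in old, and LINC00847 (-4.21, adjusted p 0.0479) had 0, 3 and 7 in young and none in old. Fitted changes against a group at 0 depend on the fit's prior count and are no measure of size. In footprints relative to RNA, edgeR without the filter called 0 of 100 members in each comparison, with 6 (ICM vs young), 9 (old vs young) and 3 (ICM vs old) at an unadjusted p under 0.05. Of the 16495 symbols fitted there, 0.721%, 0.491% and 0.467% were called.

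To set footprints against RNA, the footprints of a member were divided by the number expected if its RNA carried footprints at the rate of coding sequence in the same lysate. Members together stood at 11.0% ± 7.08 of the coding rate (mean ± SD over 9 lysates), between 3.42% and 28%. The young lysates had a mean of 10.8% ± 1.56, the old lysates 16.5% ± 10.1 and the ICM lysates 5.90% ± 3.56 (n = 3 each), and the ranges of old (9.66% to 28%) and ICM (3.42% to 9.97%) each overlapped with that of young (9.20% to 12.3%). The value rested in part on LINC00987, LINC02067, LINC01623 and LINC01279, which have many reads and few or no footprints. Without these 4, left out after seeing the data, members stood at 17.2% ± 8.57 (4.94% to 32.3%), with 21.6% ± 2.39 in young, 21.4% ± 9.70 in old and 8.54% ± 5.16 in ICM lysates. The ICM range (4.94% to 14.4%) then lay below that of young (19.1% to 23.8%) and overlapped with that of old (13.9% to 32.3%). This depended on the scaling. Scaled to all reads, without the 4, young lysates stood at 12.9%, 29.1% and 27.9% and ICM lysates at 20.9%, 6.26% and 8.35%, which overlap. With all members, that scaling gave 6.68% to 14.5% in young, 7.01% to 14.8% in old and 4.34% to 14.4% in ICM. ICM replicates 2 and 3 rested on 4.5 and 3.5 footprints, and no difference between conditions was tested. The 3′ UTRs of coding genes stood at a median of 8.40% of the coding rate (3.68% to 77.9%) and the 5′ UTRs at a median of 34.0% (14.8% to 737%). Members were below the 5′ UTRs in 9 of 9 lysates and below the 3′ UTRs in 5 of 9. They were also below the list of other long non-coding RNAs in 9 of 9 lysates, which had a median of 71.6%. That list includes hosts of snoRNAs and precursors of other small RNAs, and the origin of its footprints was not tested.

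The libraries differed in how much of them was coding. The CDS share of footprints was 34.4% in young replicate 1 and 15.0% in old replicate 2, against 54.7% to 88.8% in the others, and these 2 lysates had the highest values for 3′ UTRs (41.6% and 77.9%). Members stood at 12.3% in young replicate 1 and at 28% in old replicate 2, from 13.2 and 25.2 footprints.

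The 10 members with the most footprints held 465 of the 949 (49.0%). LINC00674 had 112 footprints, LINC00869 102, LINC00667 49.5, LINC01578 44, LINC01399 39.5, LINC00963 31.5, LINC00960 23.7, LINC01278 23, and LINC00842 and LINC02454 20 each. Set against RNA, LINC00674 stood at 18% of the coding rate (exact Poisson interval at 95%, 14.8% to 21.6%) and LINC00869 at 58.5% (47.7% to 71.0%). Both are classed in GENCODE as transcribed unprocessed pseudogenes, that is, as duplicates of other genes, and LINC00674 shares 11 of its 114 words of 47 bases with SMURF2. LINC01578 stood at 21.6% (15.7% to 29.0%) and LINC00667, whose exons share 523 bases with the opposite strand of ZBTB14, at 19.6% (14.6% to 25.9%). Intervals cover counting error only. In mRNA-seq, LINC00674 (66.1 to 83.3 CPM), LINC00869 (19.9 to 22.4), LINC00667 (28.4 to 33.8) and LINC00963 (8.03 to 11.4) were called in neither comparison with young. LINC00960 rose from 4.45 to 5.84 CPM in young to 8.39 to 10.8 in old and 10.3 to 11.2 in ICM, and LINC00842 from 4.09 to 4.56 to 9.04 to 12.4 and 7.32 to 9.72.

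LINC01399 was the member with the lower bound of its interval above the coding rate. Its 39.5 footprints were 311% of the 12.7 expected (222% to 425%), with 0, 6 and 16 in the young replicates, 10.5, 1 and 5 in old, and 1, 0 and 0 in ICM. This is the member whose exons match COX7B, shown above. COX7B had 458 footprints and 8149.5 mRNA-seq reads, against 184 mRNA-seq reads of LINC01399, which were between 1.55% and 2.77% of those of COX7B in each library. LINC01204, at 151% (81.4% to 255%) from 13.5 footprints, and LINC02454, at 115% (70.1% to 177%) from 20, were the other members at or above the coding rate, and their intervals included it. For 133 of 145 members the upper bound was under the coding rate.

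LINC00987, LINC02067 and LINC01623 had no footprint in any of the 9 libraries, although 1276, 909 and 855 would be expected at the coding rate. A count of 0 allows up to 3 footprints, or 0.235%, 0.330% and 0.351% of that rate, and the 2-sided exact Poisson interval given for other members has its upper bound at 0.289%, 0.406% and 0.431%. These bounds take the mRNA-seq reads of the 3 members as their own. How many of those reads came from PTMA, RPL23A and RPL13 was not tested. Where footprints that match both genes of a pair were put was not stated, so the bounds are uncertain too. PTMA, RPL23A and RPL13 had 654, 1151.5 and 3872.5 footprints. LINC01279 had 16.8 footprints, or 1.77% of the coding rate (1.03% to 2.84%), while CCDC80 had 5148.5.

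**Figure D5:**
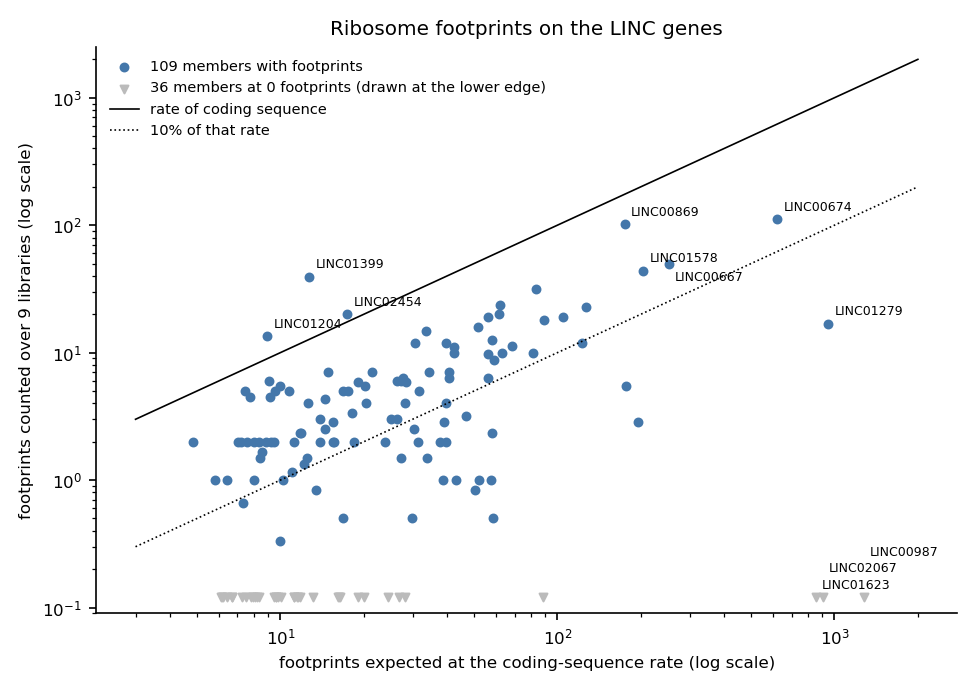
Footprints counted on each member over 9 Ribo-seq libraries (y axis, log scale) against the number expected if its RNA were read at the rate of coding sequence (x axis, log scale); the solid line is that rate, the dotted line 10% of it, and grey triangles are the 36 members at 0, drawn at the lower edge. LINC01399 lies above the solid line (39.5 against 12.7), and LINC00987, LINC02067 and LINC01623 are the triangles farthest right.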

How the data were processed

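For every Ribo-seq and mRNA-seq library the authors deposited a table of estimated counts, one row a gene symbol, in 7 class columns and without scaling to depth. The submitters' processing notes name GRCh37, STAR 2.6.0c, featureCounts, DESeq2 and deepTools, without roles; which of them made these tables, the annotation, the strand setting and the handling of multiply matching reads are not given in the sources used here. Groups and replicate numbers came from sample titles. Columns were summed (to 6 decimals before the minimum was applied) and rounded. Each assay was fitted with its 9 libraries together in edgeR 4.0.16 (R 4.3.3, TMM, filterByExpr, glmQLFTest), with Benjamini-Hochberg adjustment over all symbols. SE was taken from the change and its F statistic. Footprints relative to RNA used an interaction of assay and condition with the lysate as a block. The steps were also run on simulated counts with known changes and a set spread. That spread was not taken from these libraries, so the run checks the code only. Depth, 57632 to 14609200 reads, limits small counts.

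Symbols were matched to RefSeq (GRCh38.p14, names and neighbours) and GENCODE v44 on GRCh37 (coordinates and transcripts). Members and lists were chosen with earlier results of these data known. Named members were, per comparison, the 5 largest rises and 5 largest falls among called members with a mean of at least 1 CPM and no overlap of replicates, the 5 with most reads, the 10 with most footprints, those coding in RefSeq, those with described roles and those at the threshold. PTMA, RPL23A, RPL13, CCDC80, COX7B and the nearest coding genes, and the 5 members of the non-coding column, LINC01204, LINC00847, LINC00346, LINC00476, LINC00654, LINC01783, LINC00324 and LINC01715, were chosen after their values were seen. Alternatives were DESeq2 1.42.0, its size factors, other filters, CDS-based scaling, an absolute log2 change over 0.6, a replicate block, 2-group fits and leaving out each lysate. The matching window of LINC00987 is not reported here.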

Additional observations from a re-analysis of the deposited data

Results flagged for a closer look

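In 7 members old and ICM cells differed from young cells in opposite directions, both called, and the direct comparison of ICM with old cells was called too (edgeR, adjusted p under 0.05). Higher in ICM and lower in old were LINC00968 (log2 change 5.08 in ICM vs old), LINC00346 (1.51), LINC00476 (1.46), LINC00654 (1.38) and LINC01279 (0.32). Lower in ICM and higher in old were LINC00452 (-3.44) and LINC02454 (-1.42). These 7 are 4.83% of members, and 7.61% of all 15378 symbols were called in opposite directions. For LINC00968, LINC00346, LINC00476 and LINC00654 each of the 3 calls held in all 14 alternatives that gave an adjusted p. The others lost a call against young in some alternatives (edgeR or DESeq2): LINC02454 kept that of old in 4 of 13 (adjusted p up to 0.265) and that of ICM in 11 of 13 (up to 0.0755), LINC01279 kept that of old in 10 of 14 (up to 0.115) and that of ICM in 8 of 14 (up to 0.89), and LINC00452 kept that of ICM in 12 of 14 (up to 0.145). LINC00346, named PRECSIT in RefSeq, stood at 6.74 to 9.64 CPM in young, 3.96 to 5.31 in old and 11.4 to 14.3 in ICM. LINC00476, whose exons share 506 bases with the opposite strand of the helicase gene ERCC6L2, stood at 5.47 to 6.85, 3.23 to 3.30 and 8.66 to 9.65 CPM, and LINC00654 at 3.13 to 4.26, 2.30 to 2.81 and 6.26 to 6.74 CPM. LINC02454 stood at 1.35 to 2.13, 2.50 to 2.94 and 0.653 to 1.30 CPM.

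LINC symbols outside the members held nearly all LINC footprints. LINC01783 had 97218.8 footprints over 9 Ribo-seq libraries, LINC00324 had 48074 and LINC01715 had 21546.5, together 99.2% of the 168148 on all LINC symbols, against 0.564% on the members. Their mRNA-seq reads were 16.5, 11 and 28, under the minimum. In RefSeq, 1 tRNA gene and a U1 pseudogene lie within the span of LINC01783, 4 tRNA genes within that of LINC00324, and RNU11 and TAF12 overlap LINC01715, now TAF12-DT. Of all footprints of a library, LINC01783 took 0.479% to 0.843% in young, 0.997% to 6.63% in old and 0.326% to 0.874% in ICM, so that the ICM and young ranges overlapped. The part of those small RNAs in these footprints was not tested.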

How the results depend on the processing

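Requiring a mean of at least 50 reads per library left 45 members, of which 28 (ICM vs young), 24 (old vs young) and 31 (ICM vs old) were called (62.2%, 53.3% and 68.9%, where 73.5%, 67.9% and 65.2% of all symbols at that setting were). Among the 31 members that share no word of 47 bases with a coding transcript, a subset chosen after seeing the data, the counts were 21, 18 and 16. Their shares were 67.7%, 58.1% and 51.6%, beside 68.2%, 62.7% and 60.7% of all symbols. Both subsets are smaller by construction. In Ribo-seq, dropping the filter moved the count from 0 to 1 in ICM vs young and to 3 in old vs young, and left 0 in ICM vs old (5 at an unadjusted p under 0.05, edgeR). These were 1%, 3% and 0% of the 100 members fitted, beside 6.05%, 7.71% and 3.58% of 16866 symbols. Leaving out 1 lysate gave 68 to 75, 53 to 61 and 63 to 66 called members in mRNA-seq, in the same order. The shares of all symbols called were then 63.2% to 65.1%, 56.7% to 60.1% and 55.1% to 58.1%. DESeq2 gave 63, 50 and 56 called members (43.4%, 34.5% and 38.6%), where 62.6%, 56.6% and 54.1% of all symbols were called. Asking also for an absolute log2 change over 0.6 left 64, 50 and 48 members (44.1%, 34.5% and 33.1%). Of all symbols, 38.7%, 32.3% and 30% passed with this size threshold, so that the share of members was not lower there. Over the other mRNA-seq alternatives that gave a member an adjusted p, without that size threshold, 57 of 79, 43 of 61 and 53 of 72 calls remained in each, and no called member changed sign. The LINC and non-coding columns alone gave 78 (44 up, 34 down), 56 (34 up, 22 down) and 70 (37 up, 33 down). These were 53.8%, 38.6% and 48.3% of members, beside 49%, 38.9% and 43.9% of the 1664 symbols tested there. With a replicate block the counts were 79, 60 and 72, where 68.7%, 63.4% and 61.5% of all symbols were called. Same-numbered libraries, after the mean of each condition was subtracted, correlated with r between -0.0884 and 0.138, not above 0.1 in every pair. With 3 replicates such values cannot show whether same-numbered libraries shared a batch. Footprints relative to the coding rate stood at 8.93% to 12% without 1 lysate, at 9.97% when scaled to all reads and at 17.2% without the 4 members with most reads. The CDS column alone could give no such value, since no member has CDS reads, and the planned count on the non-coding column was replaced by the LINC and non-coding columns together, since LINC reads have their own column. Depth limits the Ribo-seq results, with 3.5 member footprints in the library that had fewest.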
